A study of Mus musculus with 6 samples.

Results

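Semaphorins, plexins and neuropilins form a family of guidance ligands and receptors, and their transcripts were followed in the midface of mouse embryos that lack TFAP2A and TFAP2B in the neural crest. The members were all rows of the gene table whose symbol names a semaphorin of classes 3 to 7, a plexin of types A to D, or neuropilin 1 or 2. This rule uses names and no measured value. It found 31 of 55401 genes: 20 semaphorins (7 of class 3, 6 of class 4, 2 of class 5, 4 of class 6 and 1 of class 7), 9 plexins (4 of type A, 3 of type B, 1 of type C and 1 of type D) and 2 neuropilins. All 31 passed the filter on low counts and were among the 19612 genes tested.

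The tissue, profiled by bulk RNA-seq at E10.5, was the microdissected frontonasal and maxillary prominences, from which the nose, midface and upper jaw form. The 3 Tfap2Δ/NCKO mutants had 1 null and 1 floxed allele at Tfap2a, 1 null and 1 floxed allele at Tfap2b, and the Wnt1:CRE transgene, which is active in premigratory neural crest. Both genes are thus deleted in the crest lineage, and every other cell keeps a reduced dose. The 3 controls were siblings without Wnt1:CRE, whose Tfap2a and Tfap2b alleles could be of any combination, and the background was mixed. As all mutants and no controls carried the transgene, its own effects and those of TFAP2 loss cannot be told apart. The study describes 3 embryos of each genotype, all littermates, for the 3 libraries of each.

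Semaphorins are secreted or membrane-bound ligands, and plexins are their main receptors, which act on the cytoskeleton and on integrin adhesion through small GTPases. Most secreted class 3 semaphorins need a neuropilin as the ligand-binding subunit beside an A-type plexin, whereas the membrane-bound classes bind plexins directly. In the embryonic head these cues are known for guiding cranial axons, for keeping streams of migrating neural crest cells apart and for patterning vessels.

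TFAP2 proteins bind DNA as dimers, and their best known recognition sequence is the palindrome GCCNNNGGC. Promoter windows from RefSeq (GRCm38.p6, 250 bases before to 50 after each annotated start) were matched by symbol for 26 of the 31 members, giving 37 windows. No window was at hand for Plxna1, Plxna4, Sema3b, Sema3f and Sema6a. These genes were not searched, and their absence below says nothing about the motif. The 9-letter motif, which reads the same on both strands, occurred in 9 member windows from 8 genes, or 24.3% of windows, against 16.6% of all 32851 windows of this length. The motif is itself rich in G and C. Windows of members that held it were 59.7 to 75.7% G and C, against a median of 52.7% over all windows. These shares were not matched for G and C content, so they do not show an excess of the motif in the family. A match is a description of letters and not a measured site. The matches of the members that are described one by one below are shown so that each can be set beside its gene's values, with the motif in capitals and with 29 bases in all; the stretch of Sema3a is shown because this gene had 1 of the smallest p-values and its window held no match.
Sema3c, chr5:17574710-17574738, plus strand, motif beginning 96 bases before the start: ccgagcgctcGCCCCCGGCgcccggccac
Sema4c, chr1:36558411-36558439, minus strand, 48 bases before the start: ccccctccccGCCTCCGGCcgctgtggcg
Sema7a, chr9:57939988-57940016, plus strand, 114 bases before the start: caagcaagggGCCACCGGCaaagctagaa
Sema7a, chr9:57940080-57940108, plus strand, 22 bases before the start: gctaggttctGCCTGCGGCcgggcgctgt
Plxna3, chrX:74329041-74329069, plus strand, 15 bases before the start: ggcccaggcgGCCGCAGGCcagcccagtg
Plxnb2, chr15:89180776-89180804, minus strand, 6 bases before the start: cgggggcgggGCCGGCGGCtcccgcgcgc
Plxnb2, chr15:89174066-89174094, minus strand, 133 bases before a further start: ccgtggtctaGCCCGAGGCtgcttgaagg
Plxnd1, chr6:115995049-115995077, minus strand, motifs 68 and 56 bases before the start: cgtgGCCGGGGGCgtgGCCCGGGGCgaaa
Sema3a, chr5:13396534-13396783, plus strand, the 250 bases before the start: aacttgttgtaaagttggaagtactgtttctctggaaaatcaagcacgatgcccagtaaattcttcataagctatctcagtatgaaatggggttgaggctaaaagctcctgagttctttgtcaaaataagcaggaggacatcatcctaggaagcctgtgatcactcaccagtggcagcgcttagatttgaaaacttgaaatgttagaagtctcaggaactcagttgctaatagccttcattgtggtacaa
The Sema3c window was 75.7% G and C and the Sema3a window 41.3%, against a median of 52.7% over all windows. In the GENCODE M21 annotation both genes also begin further upstream, Sema3c at position 17574281 and Sema3a at position 13125414 of chromosome 5, and which start is used in this tissue was not measured.

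Totals ran from 68119668 to 77555252 counts per library, so that 3 counts stood for 0.0384 to 0.0444 CPM, the unit of counts scaled to library size. Tfap2a had 31.5, 28.6 and 28.6 CPM in mutants 1 to 3, against 30.4, 33.1 and 35.1 CPM in controls 1 to 3 (log2 fold change -0.15, edgeR adjusted p 0.684). Tfap2b had 84.2, 75.6 and 77.7 CPM in mutants, against 90.1, 88.7 and 97.3 CPM in controls (log2 fold change -0.22, edgeR adjusted p 0.260). Counts over a whole gene can include transcripts of deleted alleles and of cells outside the crest, so these values check the labels only weakly. Summed CPM of 4 Y-linked genes was 149 to 156 in the 3 mutants and 148 in control 2, against 0.0802 and 0.0265 in controls 1 and 3, which had 667 and 699.8 CPM of Xist. All mutants and 1 control were therefore of 1 sex by these genes, and a fit that takes this difference into account is given at the end. Markers of the labelled tissue were present, and all 10 facial mesenchyme markers were lower in mutants, with a summed level of 930 to 982 CPM in mutants against 1196 to 1222 CPM in controls (Alx1 and Alx4 passed the test).

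No member of the family passed the test between genotypes (edgeR quasi-likelihood, adjusted p below 0.05 over all 19612 genes and a log2 fold change beyond 0.32 in either direction). Of all genes, 64 passed, or 0.326%, so the count of 0 says little about the family. Of the members, 16 were higher and 15 lower in mutants, their median log2 fold change was 0.02 against 0.001 over all genes, and the median size of the difference was 0.10 against 0.09 over all genes. An unadjusted p below 0.05 was reached by 5 members, or 16.1%, against 7.95% of all genes. These were Plxna4 and Sema3f, which were lower in mutants, and Sema3c, Sema3a and Sema6a, which were higher. In 5 members the 3 mutants and the 3 controls did not overlap in CPM, again 16.1%, against 13.4% of all genes. Here Plxna4 was lower, and Sema3a, Sema3b, Sema3c and Sema6a were higher. Under DESeq2's Wald test, which is the tool the study used on these counts, 2 members passed the same limits, Plxna4 and Sema3c, or 6.45%, against 279 of all genes, or 1.42%.

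**Figure D1:**
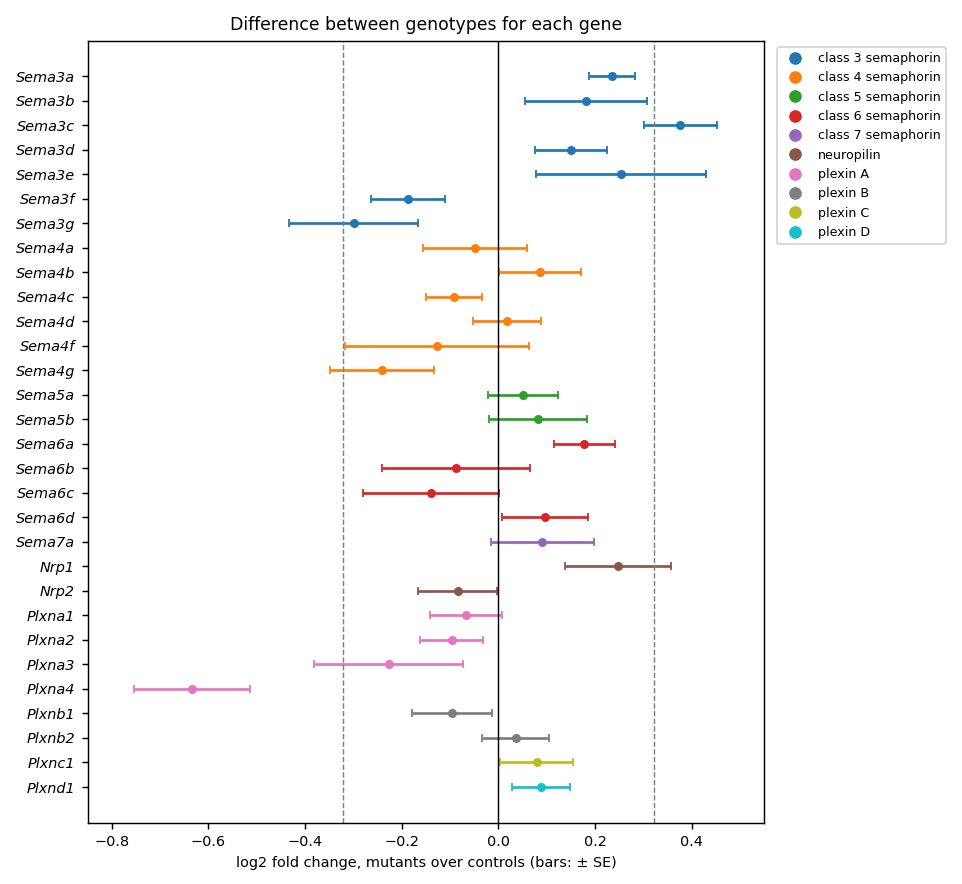
Difference between genotypes for each gene. Points are log2 fold changes of Tfap2Δ/NCKO mutants over controls from edgeR (3 libraries each), bars are ± SE, colours give the class, and dashed lines mark the limit of 0.32 in either direction; Plxnb3, listed at 0 in 2 libraries, is not drawn. Only Plxna4 (-0.63) and Sema3c (0.38) lie beyond a dashed line, and all 4 A-type plexins lie left of 0.

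The order of levels can be read only per length, as CPM per kilobase of annotated exon. Plxnb2, a receptor for class 4 semaphorins, stood highest with 37.7 in mutants and 36.7 in controls. Plxna1 followed with 22.9 and 23.9, Plxnd1 with 21.8 and 20.5, and Plxnb1 with 19.7 and 21.0, in mutants and controls in each case. Per length, plexin transcripts at this stage were thus mostly those of Plxnb2, Plxna1, Plxnd1 and Plxnb1. Among ligands, Sema4c was highest with 17.6 in mutants and 18.8 in controls, and Sema3f was next with 10.1 and 11.4. Plxna4 stood near the low end, with 0.67 in mutants and 1.03 in controls. By the mean of all libraries only Sema3e, Sema3b, Sema4f and Plxnb3 were lower, and in mutants Sema3e (0.78) and Sema3b (0.72) lay above it. Summed over the 31 members, the level was 197 ± 9.25 in mutants and 199.8 ± 12.02 in controls (SD, n = 3 each), a difference smaller than either SD. Control 3 was the highest library in 11 of the 31 members and mutant 3 in 10 of the 31. Both are larger shares than over all tested genes, where control 3 was highest in 20.6% and mutant 3 in 17.4%.

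**Figure D2:**
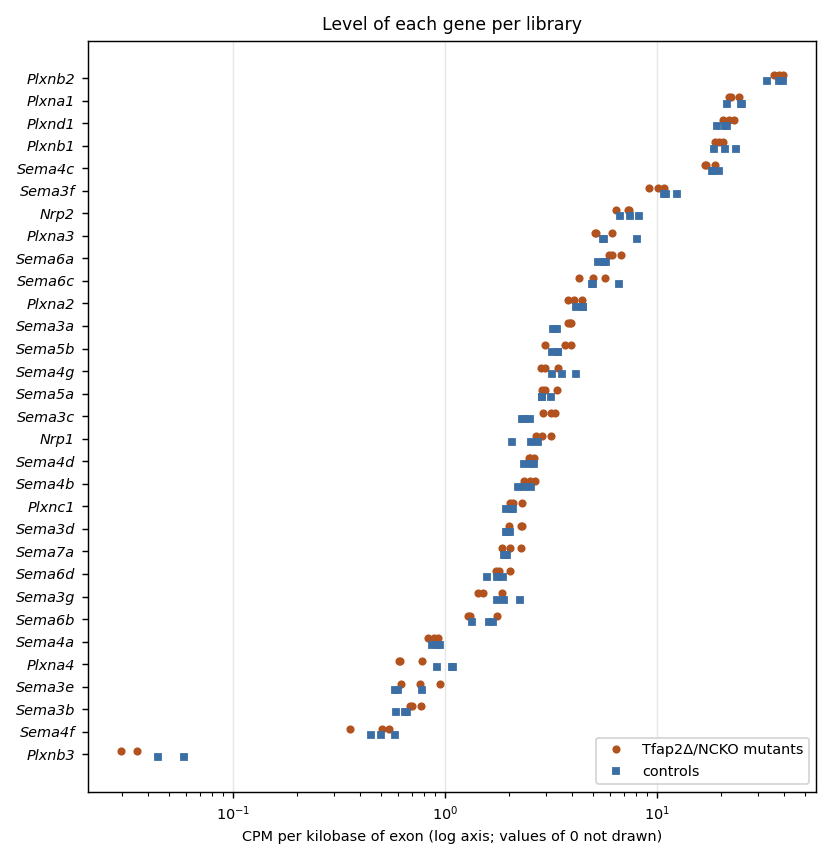
Level of each gene per library. The x axis is CPM per kilobase of exon on a log scale, with 1 point per library (mutants as circles, controls as squares; values of 0, which occur for Plxnb3 only, are not drawn). Levels span from below 0.1 for Plxnb3 to above 30 for Plxnb2, and for most genes the genotypes overlap.

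Class 3 semaphorins, the secreted ligands, held 3 of the 5 smallest p-values, with Sema3a and Sema3c on the higher side and Sema3f on the lower. Sema3c, a ligand known for guiding cardiac neural crest cells and for acting through both neuropilins, lies on the plus strand of chr5:17574281-17730268 (mm10). It had 20.7, 23.6 and 22.6 CPM in mutants 1 to 3, against 17.996, 17.0 and 16.4 CPM in controls 1 to 3. The lowest mutant thus lay above the highest control. The log2 fold change was 0.38 (SE 0.07, 95% interval 0.21 to 0.55), a fold of 1.30, with an edgeR adjusted p of 0.106 and a DESeq2 adjusted p of 0.00251. Without mutant 2 the DESeq2 adjusted p was 0.0502, and with each of the other 5 libraries left out in turn the gene passed. The edgeR adjusted p without a library ranged from 0.133 to 0.327.

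Sema3a, the prototype repellent for sensory and sympathetic axons and for crest cells, had the smallest SE of the family. It lies on the plus strand of chr5:13125414-13602565. Sema3a had 54.3, 52.8 and 54.5 CPM in mutants, against 45.8, 46.7 and 44.8 CPM in controls. The genotypes were separated by more than the whole spread of either. The log2 fold change was 0.23 (SE 0.05, 95% interval 0.13 to 0.34), with an edgeR adjusted p of 0.114. The DESeq2 adjusted p was 0.00458, but the log2 fold change lay below the limit of 0.32 in both tools. Leaving out a library gave edgeR adjusted p-values of 0.188 to 0.385.

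Sema3f, a ligand that prefers neuropilin 2 and has a known part in crest migration, was the class 3 gene with the highest level per length. The gene lies on the minus strand of chr9:107681500-107710475. Sema3f had 47.9, 52.5 and 56.4 CPM in mutants, against 57.4, 56.2 and 64.7 CPM in controls. Mutant 3 lay just above control 2, so the groups touched. The log2 fold change was -0.19 (SE 0.08, edgeR adjusted p 0.583). Sema3f made up 42.9, 45.5 and 46.4% of the summed class 3 level per kilobase in mutants, against 50.6, 48.6 and 54.1% in controls. Its share was therefore below every control in every mutant. The summed level includes the higher Sema3a and Sema3c, so the share is no separate measure of Sema3f. The class 3 total was 22.4 ± 0.97 in mutants and 22.4 ± 0.60 in controls (SD, n = 3 each), which differed by far less than the SD.

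The other class 3 genes had no unadjusted p below 0.05. Sema3d, Sema3e and Sema3b had log2 fold changes of 0.15 (SE 0.08), 0.25 (SE 0.18) and 0.18 (SE 0.13), and Sema3g had -0.30 (SE 0.13), with edgeR adjusted p-values of 0.641 to 0.850. Sema3e, a ligand of Plxnd1 that acts without neuropilins, spread from 5.80 to 8.86 CPM among mutants, wider than its difference between genotypes. Sema3a, Sema3c, Sema3d and Sema3e lie on chromosome 5, and all 4 were higher in mutants. This grouping was chosen after the values were seen and carries no test. Their summed level per kilobase was 10.07, 9.88 and 9.996 in mutants 1 to 3, against 8.37, 8.56 and 8.08 in controls 1 to 3. The 3 class 3 genes elsewhere, Sema3b, Sema3f and Sema3g, summed to 11.4, 12.3 and 13.4 in mutants, against 13.5, 13.7 and 14.9 in controls. Neither sum overlapped between genotypes. As the grouping followed the values, the opposite directions of the sums restate those of single genes and are no further result. Sema3d and Sema3e each overlapped between genotypes. Sema3b, part of the sum that was lower in mutants, was itself higher in every mutant than in every control.

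**Figure D3:**
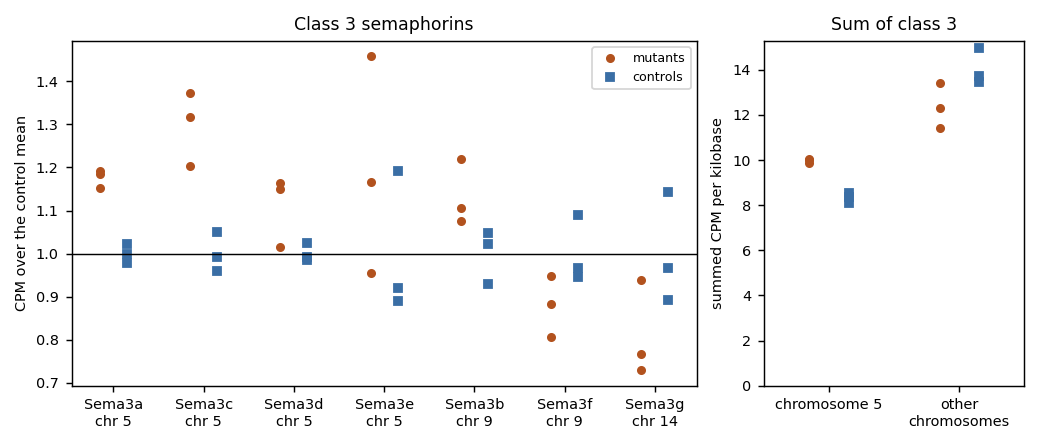
Class 3 semaphorins by chromosome, a grouping chosen after the values were seen. On the left, each library's CPM is divided by the control mean of that gene, with mutants left of controls; on the right, levels per kilobase are summed over the 4 genes on chromosome 5 and over the other 3 genes, with 1 point per library. The chromosome 5 sum lies at 9.88 to 10.07 in mutants and 8.08 to 8.56 in controls, and the other sum at 11.4 to 13.4 in mutants and 13.5 to 14.9 in controls.

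Membrane-bound semaphorins differed little. Sema4c, a class 4 ligand that binds Plxnb2, had 78.6, 86.4 and 77.8 CPM in mutants, against 83.7, 84.3 and 90.7 CPM in controls (log2 fold change -0.09, SE 0.06, edgeR adjusted p 0.840). The groups overlapped. Of the 6 class 4 genes, 2 were higher and 4 lower, between -0.24 (Sema4g, SE 0.11) and 0.09 (Sema4b, SE 0.09), and none had an unadjusted p below 0.05. Sema5a, which carries thrombospondin repeats and can attract or repel axons, had 55.7, 53.6 and 63.1 CPM in mutants, against 59.2, 53.4 and 53.7 CPM in controls (log2 fold change 0.05, SE 0.07, edgeR adjusted p 0.947). Without mutant 3 its difference was -0.02, so its sign rests on that library. Sema5b had 0.08 (SE 0.10).

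Sema6a, a transmembrane ligand of Plxna2 and Plxna4, had 53.9, 52.3 and 59.3 CPM in mutants, against 46.3, 50.3 and 49.7 CPM in controls. All mutants lay above all controls, by a small margin. The log2 fold change was 0.18 (SE 0.06, 95% interval 0.03 to 0.32), with an edgeR adjusted p of 0.470 and a DESeq2 adjusted p of 0.374. The other class 6 genes, Sema6b, Sema6c and Sema6d, had -0.09 (SE 0.15), -0.14 (SE 0.14) and 0.10 (SE 0.09). Sema7a, the only class 7 gene, which is anchored to the membrane by a lipid and signals through integrins and Plxnc1, had 6.14, 6.71 and 7.51 CPM in mutants, against 6.29, 6.39 and 6.44 CPM in controls (log2 fold change 0.09, SE 0.11, edgeR adjusted p 0.930). Controls were closely spaced and mutants spread to both sides of them.

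Among the receptors, Plxna4 showed the family's lowest p-value and its widest difference apart from the barely detected Plxnb3. Plxna4 is an A-type plexin of sensory and sympathetic neurons that carries signals of Sema3a with neuropilin 1 and of class 6 semaphorins without it. The gene lies on the minus strand of chr6:32144268-32588192. Plxna4 had 8.53, 8.70 and 11.0 CPM in mutants 1 to 3, against 15.5, 15.3 and 12.97 CPM in controls 1 to 3. Mutant 3 and control 3 stood nearest to each other, and no mutant reached a control. The log2 fold change was -0.63 (SE 0.12, 95% interval -0.91 to -0.36), a fold of 0.645, with an edgeR adjusted p of 0.0883. With DESeq2 it was -0.64 (SE 0.13, adjusted p 0.000295), and the gene passed DESeq2's test in 6 of 6 fits that left out a library, with adjusted p-values up to 0.0273. In edgeR the adjusted p without a library ran from 0.0761 to 0.314, with a log2 fold change of -0.76 to -0.57. An antisense gene, Plxna4os3, overlaps 110 bases of its exons on the other strand, and no strand option is named for the counting. Sema4c, Plxna1 and Plxnb1 overlap such genes over 334, 970 and 257 bases.

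**Figure D4:**
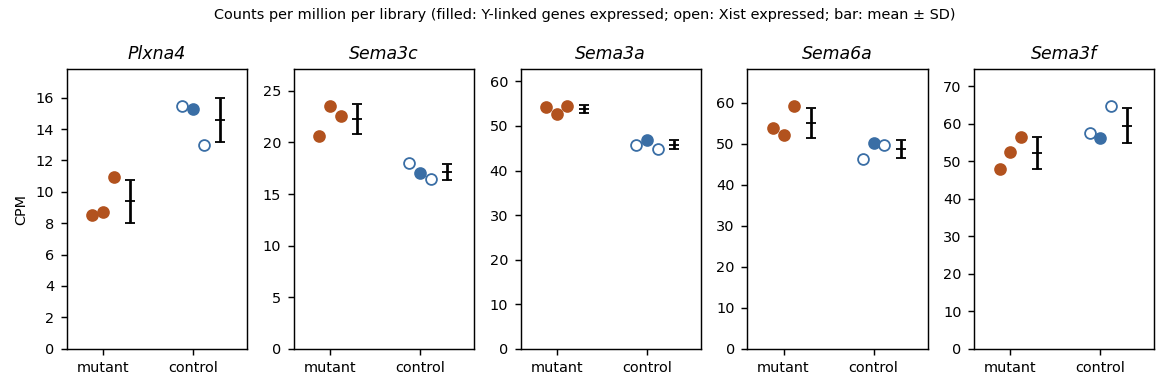
CPM per library for the 5 members with an unadjusted p below 0.05, each with mutants left of controls and an axis from 0. Filled points are libraries that express Y-linked genes, open points those that express Xist, and bars are mean ± SD (n = 3); Plxna4 lies at 8.53 to 11.0 in mutants and 12.97 to 15.5 in controls, and only in Sema3f do the groups touch.

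In bulk tissue, fewer cells of a type and less RNA per cell cannot be told apart. Marker levels of several cell types were also higher or lower in mutants. They are set beside the guidance genes by direction alone, and whether both followed each other from library to library was not tested. Beside the lower Plxna4, all 10 neuronal markers were lower in mutants, with a summed level of 398 to 595 CPM in mutants against 508 to 782 CPM in controls, and 5 of 6 crest glia markers were lower, with 74.3 to 102 CPM against 106 to 133 CPM. Pou4f1, which defines sensory neurons, had a log2 fold change of -1.18, and Sox10, which defines crest glia, of -1.53; neither passed. Neurons overlapped between genotypes in mutant 3 and control 1, and glia did not overlap. Beside the higher Sema3a, Sema3c and Sema6a, all 8 macrophage markers were higher, with 46.4 to 67.9 CPM in mutants against 26.9 to 37.1 CPM in controls (C1qb passed), and 5 of 6 head muscle and mesoderm markers were higher, with 32.6 to 35.3 CPM against 22.0 to 28.7 CPM. All 10 endothelial markers (356 to 403 CPM in mutants, 322 to 369 CPM in controls), all 6 neuroepithelial markers (343 to 363 CPM in mutants, 313 to 336 CPM in controls) and 5 of 8 surface epithelium markers (258 to 306 CPM in mutants, 247 to 262 CPM in controls) were also higher. Ramp2, an endothelial marker, had 63.4 CPM in mutant 2 and 55.5 CPM in control 3. It had 17.7 to 22.2 CPM in the other libraries, and the overlap of the endothelial sums rests on this gene. Every list was detected in every library, with none of its markers at 0 throughout. The part of these cell types in the differences of Plxna4, Sema3a, Sema3c and Sema6a was not tested.

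**Figure D5:**
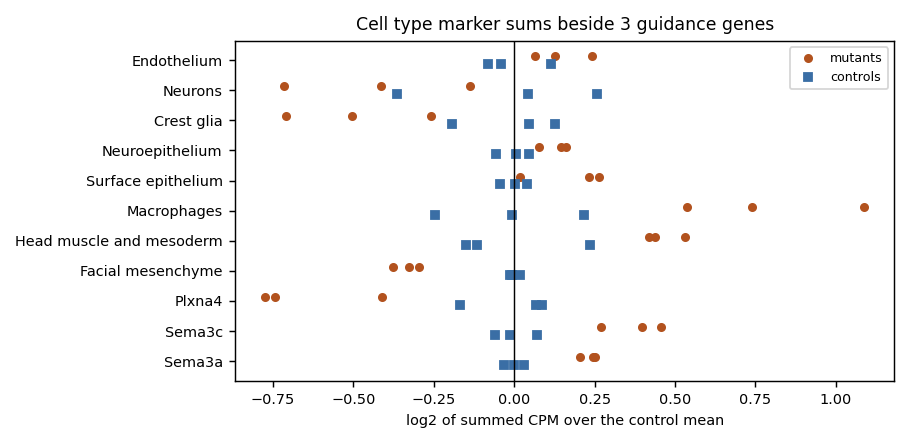
Summed CPM of each cell type marker list, and CPM of 3 guidance genes, as log2 of each library over the control mean (mutants as circles, controls as squares). Plxna4 lies left of 0 in all mutants together with crest glia, neurons and facial mesenchyme, whereas Sema3c and Sema3a lie right of 0 in all mutants together with macrophages, head muscle and mesoderm, neuroepithelium and endothelium.

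The other A-type plexins were also lower in mutants on average, but none had an unadjusted p below 0.05. Plxna1, a receptor of class 3 and class 6 ligands, had 202, 197 and 221 CPM in mutants, against 227, 194 and 229 CPM in controls (log2 fold change -0.07, SE 0.07, edgeR adjusted p 0.924). Plxna2 had -0.10 (SE 0.07). Plxna3, a receptor of Sema3f on the X chromosome, had 40.3, 40.7 and 48.2 CPM in mutants, against 44.3, 43.7 and 63.3 CPM in controls (log2 fold change -0.23, SE 0.15, edgeR adjusted p 0.850). Control 3 alone carried most of that difference, which was -0.04 without it. The median log2 fold change of the 4 A-type plexins was -0.16, a description with no test.

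No B-, C- or D-type plexin had an unadjusted p below 0.05. Plxnb2 had 275, 292 and 305 CPM in mutants, against 291, 257 and 304 CPM in controls. Its log2 fold change was 0.04 (SE 0.07, edgeR adjusted p 0.967), and the 95% interval of -0.12 to 0.19 lies within the limit of 0.32 in either direction. Plxnb1 had -0.10 (SE 0.08). Plxnb3, the second member on the X chromosome, had 16, 0 and 15 counts in mutants, against 0, 21 and 29 counts in controls, and at this depth no difference was detectable (edgeR adjusted p 0.962). Plxnd1, the vascular receptor of Sema3e, had 160, 149 and 168 CPM in mutants, against 152, 141 and 156 CPM in controls (log2 fold change 0.09, SE 0.06, edgeR adjusted p 0.850). Plxnc1, the receptor of Sema7a, had 17.6, 16.9 and 19.4 CPM in mutants, against 17.4, 16.2 and 17.4 CPM in controls (log2 fold change 0.08, SE 0.08, edgeR adjusted p 0.909).

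The neuropilins, which also bind VEGF, pointed in different directions. Nrp2 had 76.2, 87.3 and 86.7 CPM in mutants, against 79.8, 97.4 and 88.2 CPM in controls (log2 fold change -0.08, SE 0.08, edgeR adjusted p 0.909). Nrp1 had 26.3, 28.2 and 31.0 CPM in mutants, against 20.2, 26.8 and 24.9 CPM in controls (log2 fold change 0.25, SE 0.11, edgeR adjusted p 0.638). Both overlapped between genotypes, and whether the 2 genes differed from each other in their response was not tested.

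Genes that work with the family were read from 3 lists, and none of their members passed edgeR's test. The lists were chosen with earlier results of these data known, so their counts of small p-values are a description and carry no test. Of 10 co-receptors and alternative receptors, 9 were tested (Timd2 was listed at 0 in every library), 6 were higher and 3 lower, and 5 had an unadjusted p below 0.05, against the 7.95% of all genes. The most abundant, Itgb1, the integrin chain used by Sema7a, had a log2 fold change of 0.15 (SE 0.06, edgeR adjusted p 0.522). L1cam, an adhesion molecule of axons that pairs with neuropilin 1 in the response to Sema3a, had 9.96, 10.1 and 11.8 CPM in mutants, against 12.8, 17.2 and 18.7 CPM in controls, a log2 fold change of -0.61 (SE 0.14). Its edgeR adjusted p was 0.166, and it passed in DESeq2 with all libraries. With a library left out it passed in 1 of 6 edgeR fits (without control 1) and in 2 of 6 DESeq2 fits (without mutant 3 and without control 1). Of 8 VEGF ligands and receptors, 6 were higher and 2 lower, and 4 had an unadjusted p below 0.05, against the same 7.95%; Kdr is in both lists. The most abundant, Kdr, had 0.15 (SE 0.06, edgeR adjusted p 0.556). Vegfc, a lymphatic growth factor that binds neuropilin 2, had 14.2, 14.9 and 16.5 CPM in mutants, against 9.78, 12.3 and 10.3 CPM in controls (log2 fold change 0.50, SE 0.11, edgeR adjusted p 0.125), and passed in DESeq2. It passed in 3 of 6 DESeq2 fits with a library left out, and was lost without mutant 3, control 1 or control 3. Of 31 intracellular effectors of plexins, 20 were higher and 11 lower, 3 had an unadjusted p below 0.05, a share close to that of all genes, and the most abundant, the actin-severing gene Cfl1, had 0.03 (SE 0.05, edgeR adjusted p 0.965). L1cam and Vegfc are described because DESeq2 called them, a choice made after their values were seen.

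With the level of Y-linked genes as a covariate, no member passed and 7 of the 31 turned their direction, among them Plxna1 (0.09), Plxnb1 (0.09) and Sema3e (-0.002). All 5 members with an unadjusted p below 0.05 kept theirs. Plxna4 had -0.71 (edgeR adjusted p 0.236), Sema3c 0.38 (edgeR adjusted p 0.421) and Sema3a 0.20 (edgeR adjusted p 0.632). Sema6a had 0.14, and Sema3f had -0.10 (SE 0.11), against -0.19 without the covariate. Of the other genes described above, Plxna3 had -0.002, Plxna2 -0.02, Sema4c -0.06 and Nrp1 0.10, closer to 0 than without the covariate, whereas Nrp2 had -0.22, Plxnb2 0.18, Plxnd1 0.18, Plxnc1 0.15 and Sema5a 0.10, further from 0. With the Y-expressing libraries alone, 3 mutants and control 2, Plxna4 had -0.72, Sema3c 0.37 and Sema3a 0.19, and none passed in edgeR. A single control carries both of these comparisons.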

How the data were processed

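Total RNA of 6 libraries (poly(A) selected, stranded kit, 150-base single-end reads) was measured. The authors mapped reads to mm10 with STAR, quantified them with StringTie and made the deposited table of estimated counts per gene with prepDE for DESeq2; all values were already whole. For tool versions, the annotation release and prepDE's read length, the value is not given in the sources used here. The table's columns of the authors' DESeq2 comparison, and the second table, their kallisto and sleuth comparison, were not used.

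Counts were tested in R 4.3.3 with edgeR 4.0.16 (filterByExpr, TMM factors 0.992 to 1.01, robust quasi-likelihood F test, no covariate, Benjamini-Hochberg over 19612 genes). The SE is the absolute log2 fold change divided by the square root of F. Calls needed an adjusted p below 0.05 and a log2 fold change beyond 0.32, the study's limits for its DESeq2 comparison. For its gene list the study also required a q-value limit in its kallisto and sleuth comparison, which was not applied here. CPM uses TMM-adjusted library sizes. Exon lengths came from GENCODE M21, whose identifiers with version matched 54349 of 55401 rows. Reads without molecular identifiers are not independent molecules, so the limit of 3 counts covers counting error only. In the 15 pairs of libraries, chi-square per gene was 17.3 to 36.0, so none was deposited repeatedly. DESeq2 1.42.0, limma 3.58.1 (voom), other scalings and filters, counts divided by 2, left-out libraries and a sex covariate were alternatives, and the code was tested on simulated data.

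Described in full were members with an unadjusted p below 0.05, the most abundant of each class and those on the X chromosome; of each partner list, any called gene and the most abundant. Members and lists were chosen with earlier results of these data known.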

Additional observations from a re-analysis of the deposited data

How the results depend on the processing

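Members called numbered 2 with DESeq2 (1 to 2 with each library left out in DESeq2), 1 at an adjusted p below 0.1 in edgeR (Plxna4), and 0 in the other edgeR and limma alternatives. Of all genes, DESeq2 called 279 (268, 207 and 283 without mutants 1 to 3, and 215, 289 and 204 without controls 1 to 3), the limit of 0.1 gave 122, the Y-linked covariate 38, the Y-expressing libraries alone 33, and edgeR with each library left out 23 to 63. In the partner lists DESeq2 called 2 genes (0 to 2 with each library left out), and edgeR 0 to 1 with each library left out. Direction turned for Plxna1 with the Y-linked covariate (0.092) and with the Y-expressing libraries alone (0.076). It turned for Plxnb2 without mutant 3 (-0.000805, and -0.0029 in DESeq2) and without control 2 (-0.032, and -0.031 in DESeq2). It also turned for Sema5a without mutant 3 (-0.022, and -0.024 in DESeq2). The edgeR fits with a library left out ranged from -0.032 to 0.080 for Plxnb2 and from -0.022 to 0.099 for Sema5a. With the Y-linked covariate, Plxnb2 had 0.18 and Sema5a 0.10. The causes were not tested. With the replicate number as a block, 119 genes and 0 members passed, against 64 genes and 0 members without it. An unadjusted edgeR p below 0.05 was reached by 9 members with the block and 5 without it. Of all genes, 2186 reached it with the block and 1560 without it. Samples with the same number correlated at 0.0228, 0.0976 and 0.106, and each mutant correlated best with its own number. For mutant 1 the margin was small (0.022 with control 3). The correlations are weak, and although the count columns are lettered with control and mutant of each number in turn, no label states a pairing. Whether the number pairs the samples cannot be decided here. The family's median stayed between -0.03 and 0.04 when a library was left out of the edgeR fit. Stricter filters and counts divided by 2 left Plxnb3 untested. The DESeq2 fits with left-out libraries and the Y-expressing libraries alone were added after seeing the data. Depth limits Plxnb3, which was listed at 0 in 2 libraries.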
